A study of Mus musculus with 11 samples.

Results

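The epithelial keratins examined here were Krt5, Krt7, Krt8, Krt14, Krt15, Krt17, Krt18, Krt19, Krt20 and Krt23, 10 genes of 20284 that a RefSeq name could be given to on the array. They were chosen by name, and every probe whose accession belonged to 1 of them was used, 11 probes of 55681. Krt5 had 2 probes and each other gene had 1, and for Krt5 the brighter probe stood for the gene. All 11 probes passed the filter on dim probes, which kept 47997 probes in all.

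Keratins are the intermediate filament proteins of epithelial cells. A type II keratin (Krt5, Krt7 and Krt8 here) pairs with a type I keratin (Krt14, Krt15, Krt17, Krt18, Krt19, Krt20 and Krt23 here), and the filaments are anchored at desmosomes between cells and at hemidesmosomes on the basement membrane. Krt8 and Krt18 are the pair of simple epithelia, Krt7 and Krt19 accompany them in ducts and glands, Krt5 and Krt14 are the pair of basal cells of stratified epithelia, and Krt17 is known for its induction in injured epidermis.

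Single-colour arrays of mouse RNA were compared between otospheres (OS), the cochlear sensory epithelium (CSE) and embryonic stem cells (ESCs), to describe what sets otospheres apart at the transcript level. Otospheres were floating spheres grown from dissociated CSE cells of newborn ICR mice in serum-free medium with bFGF and IGF1, passaged once, and strained to retain the solid spheres. CSE was dissected from ICR mice of the same age, with the cochleae of several animals pooled, and was not cultured. The ESCs were 1 array each of the lines G4-2 and D3 at passage 13, kept without feeder cells in serum and LIF, so the ESC spread includes a difference between lines.

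There were 6 OS, 3 CSE and 2 ESC arrays, of which slide 1 held OS1 to OS3, CSE1, CSE2 and ES1, and slide 2 held OS4 to OS6, CSE3 and ES2. OS1 with OS2, and OS4 with OS5, differed by about the noise between spots of the same probe or by less and were counted as 1 sample each, which left 4 OS, 3 CSE and 2 ESC samples. Between 55.1% and 71.6% of spots were flagged by the scanner as well above background, no spot was saturated, and the number of arrays limits the precision. Of 12 supporting cell markers 11 were lower in otospheres than in CSE, beside 6.19% of all kept probes. So were 5 of 10 hair cell, 4 of 7 glia, 4 of 6 macrophage, 3 of 6 endothelial and 1 of 9 mesenchyme markers, while the glia marker Mbp was higher. Against ESCs, 6 of 7 ESC markers were lower in otospheres and 6 of 7 in CSE, beside 15.6% of all kept probes in each comparison. The exception was Nanog, whose brightest probe was at 8.38 in ESCs, 9.82 in OS and 10.03 in CSE. The paper lists Nanog among the genes upregulated only in ESCs, unlike this probe, and whether the probe measures Nanog was not tested. In such bulk samples, a change in the share of a cell type and a change in RNA per cell cannot be told apart.

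The promoters of Krt8, Krt18 and Krt7 are shown because these 3 genes were higher in otospheres than in both other groups in each alternative fit. Each window runs from 250 bases before to 50 bases after the RefSeq start (GRCm38.p6, written along the gene's strand), and 7 of the 10 genes had such a window in the table used. Krt15, Krt17 and Krt19 were not among them. Capitals mark matches, on either strand, to the letters searched for each of 6 motifs. The TATA box was searched as TATAAA and the GC box as GGGCGG. The box bound by Klf factors was searched as CCACCC and the AP-1 site as TGANTCA. The Ets site was searched as GGAAGT and the Grhl site as AACCGG.
Krt8 promoter, chr15:102004293-102004592, minus strand: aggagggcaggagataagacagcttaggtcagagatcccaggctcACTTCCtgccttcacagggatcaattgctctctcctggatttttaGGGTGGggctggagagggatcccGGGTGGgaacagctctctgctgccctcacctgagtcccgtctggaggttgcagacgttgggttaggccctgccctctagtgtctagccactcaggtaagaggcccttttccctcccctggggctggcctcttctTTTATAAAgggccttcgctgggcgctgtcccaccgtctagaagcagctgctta
Krt18 promoter, chr15:102027966-102028265, plus strand: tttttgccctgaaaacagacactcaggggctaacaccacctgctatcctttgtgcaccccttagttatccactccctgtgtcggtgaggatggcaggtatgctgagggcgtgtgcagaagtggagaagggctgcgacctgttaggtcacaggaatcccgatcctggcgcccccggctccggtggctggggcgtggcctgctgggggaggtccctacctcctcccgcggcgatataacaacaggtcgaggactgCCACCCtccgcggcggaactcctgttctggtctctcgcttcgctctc
Krt7 promoter, chr15:101412153-101412452, plus strand: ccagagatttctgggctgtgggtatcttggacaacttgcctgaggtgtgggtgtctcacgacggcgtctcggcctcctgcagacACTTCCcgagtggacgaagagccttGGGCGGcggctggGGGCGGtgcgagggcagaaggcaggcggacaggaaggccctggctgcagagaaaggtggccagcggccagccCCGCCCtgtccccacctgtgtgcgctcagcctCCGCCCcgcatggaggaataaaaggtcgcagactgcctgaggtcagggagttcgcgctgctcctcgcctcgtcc

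The Krt8 window held the Klf motif in 2 places and the Ets motif in 1, and the TATA box on both strands in overlapping places at the RefSeq start. The Krt18 window held the Klf motif in 1 place, just after the start. The Krt7 window held the GC box in 4 places and the Ets motif in 1. Of 32851 promoter windows of this length, 13.6% held the TATA box, 35.7% the GC box, 31.5% the Klf motif and 23.8% the Ets motif. The AP-1 motif, in 7.81% of all windows, and the Grhl motif, in 6.83%, were in none of the 3. No single motif was present in all 3. Krt8 (chr15:101996711-102004342) and Krt18 (chr15:102028216-102032026) are neighbours, whereas Krt7 (chr15:101412403-101427806) lies apart from them on the same chromosome.

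Otospheres carried more RNA of the simple-epithelial keratins than the epithelium they were grown from. Krt8, Krt18, Krt7, Krt19 and Krt17 were higher in OS than in CSE, Krt15 was lower, and Krt20, Krt23, Krt5 and Krt14 did not pass the test (limma, Benjamini-Hochberg over all kept probes, threshold 0.05). The count of 5 higher and 1 lower of 10 compares with 4.84% of all kept probes called higher and 6.19% called lower. The median difference was 2.01 on the log2 scale over the 10 keratins and 0.02 over all kept probes. Over the 3 groups, 8 of 10 keratins passed limma's F-test, as did 33.8% of all kept probes.

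**Figure D1:**
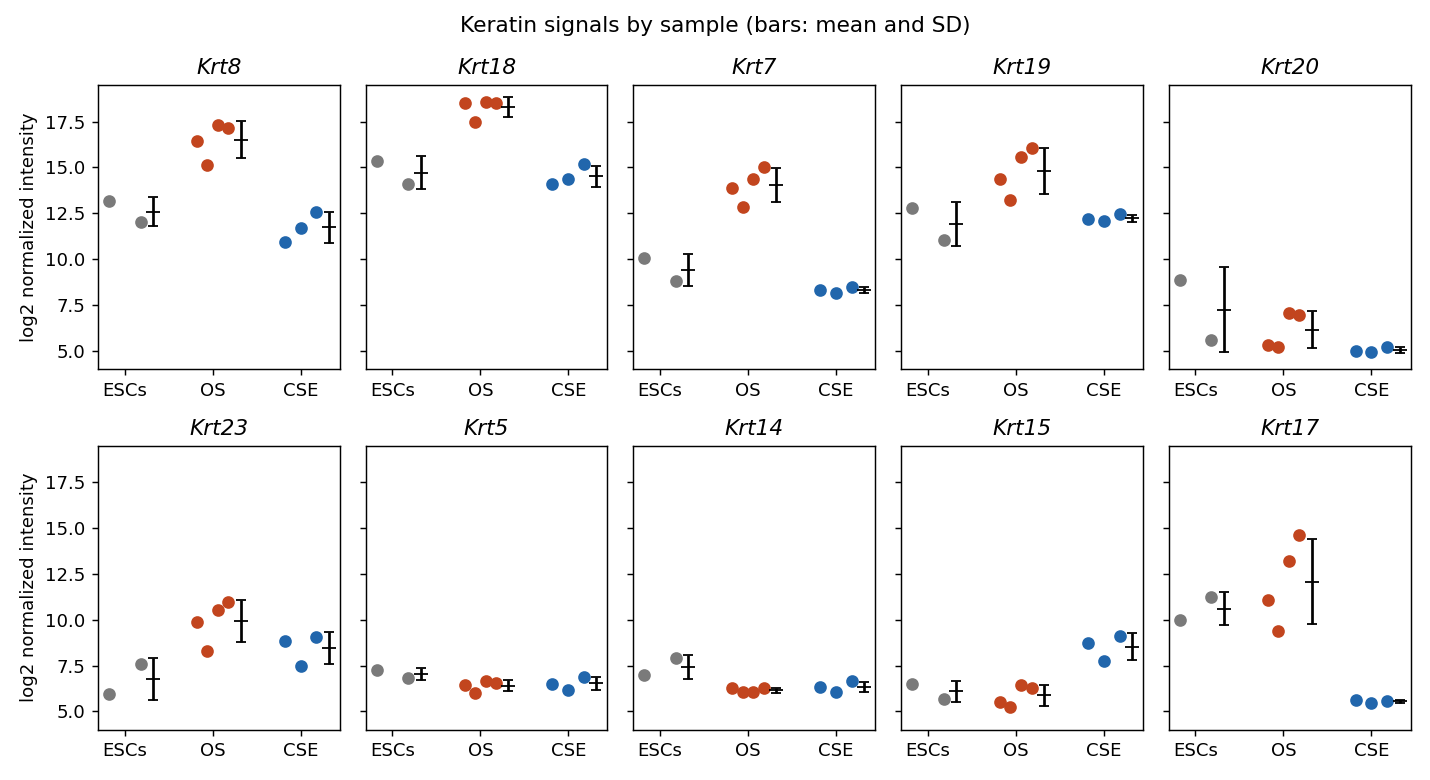
Log2 normalized intensity of each keratin (vertical axis) in the 2 ESC, 4 OS and 3 CSE samples (points), with the mean and SD of each group (bars). The OS points of Krt8, Krt18, Krt7 and Krt19 sit above every ESC and CSE point, Krt15 is highest in CSE, and the CSE points of Krt17 sit between 5.46 and 5.62.

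Krt8, the type II keratin of simple epithelia, had log2 intensities of 16.42, 15.13, 17.34 and 17.17 in OS1-2, OS3, OS4-5 and OS6. It had 10.91, 11.70 and 12.56 in the CSE samples and 13.15 and 12.01 in the ESCs. Every OS sample was above every other sample, while CSE and ESC samples overlapped. OS exceeded CSE by 4.79 ± 0.59 (SE, limma adjusted p = 0.00135), a 27.7-fold difference, and ESCs by 3.94 ± 0.67 (limma adjusted p = 0.00235). CSE and ESCs, the lower neighbours, did not differ beyond their spread (difference -0.86, 95% interval -2.46 to 0.75).

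Krt18, the type I partner of Krt8, had log2 intensities of 18.54, 17.47, 18.59 and 18.51 in the OS samples. It had 14.07, 14.34 and 15.17 in CSE and 15.36 and 14.07 in ESCs. The OS samples again stood above all others, and OS3 was the lowest of them. The difference was 3.75 ± 0.42 from CSE (SE, limma adjusted p = 0.000814) and 3.56 ± 0.47 from ESCs (limma adjusted p = 0.000623). The difference from ESCs was 4.21 without ES1 and 2.92 without ES2, and passed in both. On arrays OS4 and OS5 the value of 18.59 was the top of the quantile-normalized scale, so a higher level could not have been recorded there. CSE and ESCs did not differ beyond their spread (difference -0.19, 95% interval -1.31 to 0.94).

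Krt7, a type II keratin of ducts and glands, was at 13.86, 12.84, 14.37 and 15.02 in the OS samples. In CSE it was at 8.30, 8.15 and 8.46, and in ESCs at 10.03 and 8.78. OS were highest, then ESCs, then CSE, with no overlap between any of the groups. The log2 difference between OS and CSE was 5.71 ± 0.49 (SE, limma adjusted p = 0.000238), a 52.5-fold difference, and between OS and ESCs 4.62 ± 0.55 (limma adjusted p = 0.000379). The difference from ESCs was 5.24 without ES1 and 3.99 without ES2, and passed in both. The difference between CSE and ESCs, -1.10 with a 95% interval of -2.43 to 0.23, did not pass.

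Krt19, the type I keratin that lacks most of the tail domain, had log2 intensities of 14.36, 13.21, 15.57 and 16.04 in OS. It had 12.16, 12.08 and 12.45 in CSE and 12.76 and 11.05 in ESCs. All OS samples lay above the rest, with OS3 nearest to them. The difference from CSE was 2.57 ± 0.66 (SE, limma adjusted p = 0.0397), and from ESCs 2.89 ± 0.75 (limma adjusted p = 0.0191). The call against CSE was close to the threshold and was lost in 10 of 22 alternative fits, among them those without OS1-2, OS4-5 or OS6 and those without any 1 of the CSE samples (limma adjusted p between 0.0642 and 0.129). The call against ESCs was lost in 3 of 22 alternative fits, among them those with the processed signal (2.32, limma adjusted p = 0.0631) and without ES2 (2.03). That call held without ES1 (3.75).

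Krt17, the wound-induced keratin, gave the widest range within otospheres, with log2 intensities of 11.09, 9.36, 13.19 and 14.63. In CSE it was at 5.62, 5.46 and 5.56, and in ESCs at 9.96 and 11.24. Every OS and ESC sample was above every CSE sample, and OS overlapped ESCs. OS exceeded CSE by 6.52 ± 1.07 (SE, limma adjusted p = 0.00517), a 91.9-fold difference, which moved to 7.42 on the log2 scale without OS3 and 5.67 without OS6. The CSE values were close to the negative controls, whose 95th percentile was 4.99 to 5.1 on the CSE arrays, so the size of this difference depends on the processing. The log2 difference was 7.12 with an offset of 0 and 5.76 with an offset of 50, and passed in both. CSE was below ESCs by a log2 difference of -5.05 ± 1.28 (limma adjusted p = 0.0164). The call between CSE and ESCs was lost without ES2 (-4.41, limma adjusted p = 0.0988) and held without ES1 (-5.70, limma adjusted p = 0.0419). The difference between OS and ESCs was 1.47 with a 95% interval of -1.28 to 4.22. Krt17 and several type I keratins are close in sequence, and whether this probe also binds a relative was not tested.

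Krt15, a keratin of basal cells and of hair follicle stem cells, ran the other way. Its log2 intensities were 8.73, 7.74 and 9.13 in CSE, 5.51, 5.24, 6.43 and 6.29 in OS, and 6.50 and 5.69 in ESCs. CSE stood apart from both other groups, which overlapped. OS were below CSE by a log2 difference of -2.67 ± 0.41 (SE, limma adjusted p = 0.00404), and CSE exceeded ESCs by 2.44 ± 0.50 (limma adjusted p = 0.00576). The probe was well above background on 3 of 3 CSE, 4 of 6 OS and 1 of 2 ESC arrays, so the lower levels are near the limit of measurement. The OS minus CSE difference was -4.04 with the processed signal and -2.12 with an offset of 50, and passed in both.

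The basal pair was dim in all groups. Krt5 was at 6.43, 5.99, 6.64 and 6.54 in OS, 6.51, 6.19 and 6.87 in CSE and 7.28 and 6.82 in ESCs. Its OS minus CSE difference was -0.12 with a 95% interval of -0.65 to 0.41, and no array had its second probe well above background. Krt14 was at 6.26, 6.04, 6.05 and 6.30 in OS, 6.35, 6.08 and 6.63 in CSE and 6.98 and 7.90 in ESCs. OS and CSE overlapped (difference -0.19, 95% interval -0.74 to 0.35), while both were below ESCs, by log2 differences of -1.28 ± 0.27 for OS (SE, limma adjusted p = 0.00733) and -1.09 ± 0.29 for CSE (limma adjusted p = 0.0199). Without ES2 neither call held (-0.82 and -0.63, limma adjusted p = 0.0532 and 0.131), and the call for CSE was also lost without CSE1 or CSE2 (limma adjusted p = 0.0544 and 0.0587).

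Krt23, a type I keratin of glandular epithelium, had log2 intensities of 9.90, 8.31, 10.53 and 10.98 in OS, 8.85, 7.48 and 9.07 in CSE and 5.94 and 7.58 in ESCs. OS lay above ESCs without overlap (3.17 ± 0.78, SE, limma adjusted p = 0.0148) but overlapped CSE (1.46, 95% interval -0.10 to 3.03), and the call against ESCs was lost without ES1 (2.35, limma adjusted p = 0.129) and held without ES2 (3.99, limma adjusted p = 0.0201). Krt20, a keratin of gut and urothelium, was at 5.32, 5.19, 7.04 and 6.96 in OS, 4.97, 4.93 and 5.19 in CSE and 8.88 and 5.59 in ESCs. It was well above background on 3 of 6 OS arrays, all of slide 2, on 1 of 2 ESC arrays and on no CSE array. Neither OS nor ESCs passed against CSE in the fit used (limma adjusted p = 0.502 and 0.108). The comparison of CSE with ESCs rested on ES1: it passed without ES2 (-3.85, limma adjusted p = 0.00777) and was at -0.56 without ES1 (limma adjusted p = 0.664), and it passed with scaling to the 75th percentile (-2.33, limma adjusted p = 0.0477).

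Against ESCs, otospheres had 5 keratins higher (Krt8, Krt18, Krt7, Krt19 and Krt23) and Krt14 lower, beside 12.1% of all kept probes called higher and 15.6% called lower. CSE had Krt15 higher and Krt14 and Krt17 lower than ESCs, beside 13.2% and 15.6% of probes. These comparisons share their samples and are not independent of each other.

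**Figure D2:**
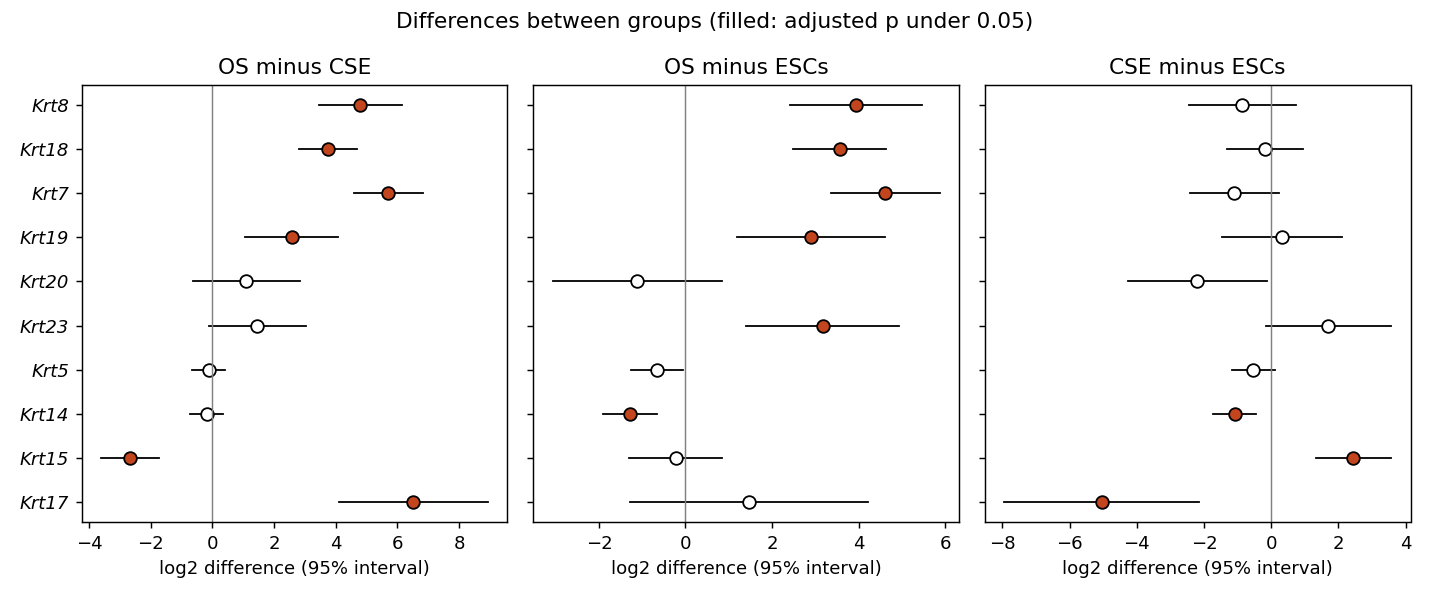
Log2 differences between groups (horizontal axes) for each keratin (rows), with 95% intervals from limma, and filled points where the adjusted p was under 0.05. Krt8, Krt18, Krt7 and Krt19 are filled and to the right of 0 in both panels that compare otospheres, while Krt15 is at -2.67 against CSE.

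The otosphere samples differed among themselves. Both samples of slide 2 were above both of slide 1 for 8 of the 10 keratins, all but Krt18 and Krt14, where 27.8% of all kept probes show that order. For Krt18, OS1-2 (18.54), OS4-5 (18.59) and OS6 (18.51) were at or near the top of the normalized scale, so their order is not informative. The mean of the slide 2 samples exceeded that of the slide 1 samples by 3.69 for Krt17, 2.01 for Krt19, 1.74 for Krt20, 1.65 for Krt23, 1.48 for Krt8 and 1.34 for Krt7, as log2 differences. OS3 was the lowest OS sample for all 10, but narrowly for Krt14 (6.04 beside 6.05 in OS4-5) and Krt20 (5.19 beside 5.32 in OS1-2). The share of all probes that are lowest in OS3 was not computed. Array OS3 also had the lowest median signal of the OS arrays, 68, and the lowest percentage of spots well above background, 58.5%. Slide and preparation cannot be told apart for otospheres.

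Within each slide the OS minus CSE difference had the sign of the pooled one for all 10 keratins. It was 4.47 on slide 1 and 4.69 on slide 2 for Krt8, 3.80 and 3.38 for Krt18, 5.12 and 6.23 for Krt7, 1.67 and 3.36 for Krt19, 4.68 and 8.36 for Krt17 and -2.87 and -2.77 for Krt15. For Krt5 (-0.14 and -0.27) and Krt14 (-0.06 and -0.46) the difference was small. The pooled difference comes from the same samples, and the share of all kept probes whose signs agree in this way was not computed. Slide 2 held 1 CSE sample and slide 1 held 2, so these within-slide values carry no test. In a fit over all samples with the slide as a block, Krt19 no longer passed between OS and CSE (2.46, limma adjusted p = 0.0529) and Krt23 passed between CSE and ESCs (1.94, limma adjusted p = 0.0306), and no other call on the keratins changed.

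Lists of other genes moved between the same otosphere samples. The mean log2 intensity of 14 epithelial markers was 12.22, 11.40, 12.69 and 12.72 in OS1-2, OS3, OS4-5 and OS6, and that of 12 desmosome genes was 9.64, 9.03, 10.35 and 10.51. The mean of 10 hair cell markers was 7.85, 7.15, 8.91 and 9.37, and that of 9 mesenchyme markers 11.98, 12.46, 10.91 and 8.58, in the same order. OS3 was thus lowest in the epithelial marker, desmosome and hair cell lists and highest in the mesenchyme list. The list of 9 secretory mucosa markers ran otherwise, at 11.65, 11.58, 11.35 and 10.42, lowest in OS6. The part of these lists in the keratin differences was not tested.

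**Figure D3:**
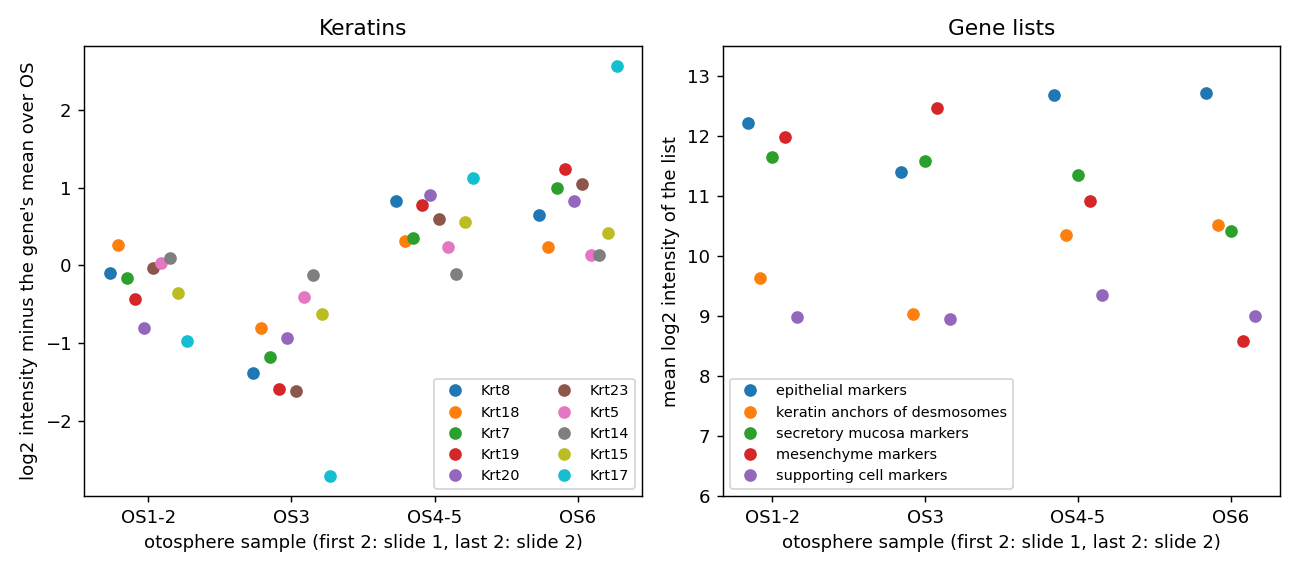
Left, log2 intensity of each keratin in the 4 OS samples minus its mean over them. Right, mean log2 intensity of 5 gene lists in the same samples. Krt17 spreads most, from 9.36 in OS3 to 14.63 in OS6, and the mesenchyme list is lowest, at 8.58, in OS6.

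The partners that hold keratin filaments to junctions were described from a list of genes. Of 12 desmosome genes, 6 were higher in OS than in CSE and none was lower, with a median log2 difference of 1.39 beside -0.01 over all named genes. Desmoplakin (Dsp), the linker between keratins and the desmosome, was higher by 2.86 ± 0.26, and Perp by 2.61 ± 0.55, Ppl by 2.42 ± 0.52, the cadherin Dsc2 by 2.12 ± 0.33, Pkp2 by 1.54 ± 0.30 and plakoglobin (Jup) by 1.01 ± 0.27 (SE; limma adjusted p between 0.000316 and 0.0421).

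Of 9 hemidesmosome genes, 5 were higher in OS than in CSE and none was lower, with a median of 0.88. Among them, the laminin chain Lamb3 was higher by 5.39 ± 0.77, the integrin Itgb4 by 2.29 ± 0.43, plectin (Plec), which binds keratins to that integrin, by 1.55 ± 0.27 and Cd151 by 0.88 ± 0.22 (SE; limma adjusted p between 0.00272 and 0.0367). Dst, Itga6, Col17a1 and Lama3 did not pass. Of 14 epithelial markers 13 were higher and none was lower, among them the claudins Cldn4 (3.87 ± 0.44) and Cldn6 (3.19 ± 0.39).

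Other keratins were mostly not called. Of 10 other type I keratins tested, Krt13, a keratin of internal stratified epithelia, was higher by 3.94 ± 0.49 (SE, limma adjusted p = 0.00146) and Krt42 by 2.57 ± 0.56 (limma adjusted p = 0.0198). Of 11 hair keratins tested, Krt81 was higher by 3.97 ± 0.55 (limma adjusted p = 0.00242). Of 14 other type II keratins tested none was higher, and Krt1, a keratin of differentiating epidermis, was called lower, not well above background on any OS array and at a log2 intensity of 6.29 in CSE (limma adjusted p = 0.0267).

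Among the other intermediate filaments, 2 were higher and 6 lower of 14. The neuronal filaments Nefh (-5.83 ± 0.42), Nefl (-5.48 ± 0.56), Nefm (-4.66 ± 0.54), Ina (-3.70 ± 0.49) and Prph and the muscle filament Des were lower in OS than in CSE, Prph being well above background on 1 of 6 OS arrays, and Sync and lamin A (Lmna) were higher. Vimentin (Vim), the filament of mesenchymal cells, was at a difference of -0.29 ± 0.30 and nestin (Nes), that of neural progenitors, at 0.37 ± 0.47, and neither passed (limma adjusted p = 0.702 and 0.773).

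Of 16 transcription factors known to act on epithelial keratin genes, 4 were higher in OS than in CSE and none was lower. The shares of all kept probes were 4.84% and 6.19%. Against ESCs, 2 of the 16 were higher in OS and 4 lower, beside 12.1% and 15.6% of all kept probes. The differences that follow are from CSE. Cebpb was higher by 3.29 ± 0.38, Elf3 by 3.11 ± 0.30, Klf5 by 2.34 ± 0.56 and Grhl1 by 1.24 ± 0.33 (SE; limma adjusted p between 0.000417 and 0.0447). Trp63, the regulator of basal keratins, was at a difference of -0.44 ± 0.43 (limma adjusted p = 0.68). Its probe was at a log2 intensity of 11.29 in ESCs, 11.74 in OS and 12.18 in CSE. Krt5 and Krt14 were dim in the same groups, and whether this probe measures Trp63 was not tested.

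**Figure D4:**
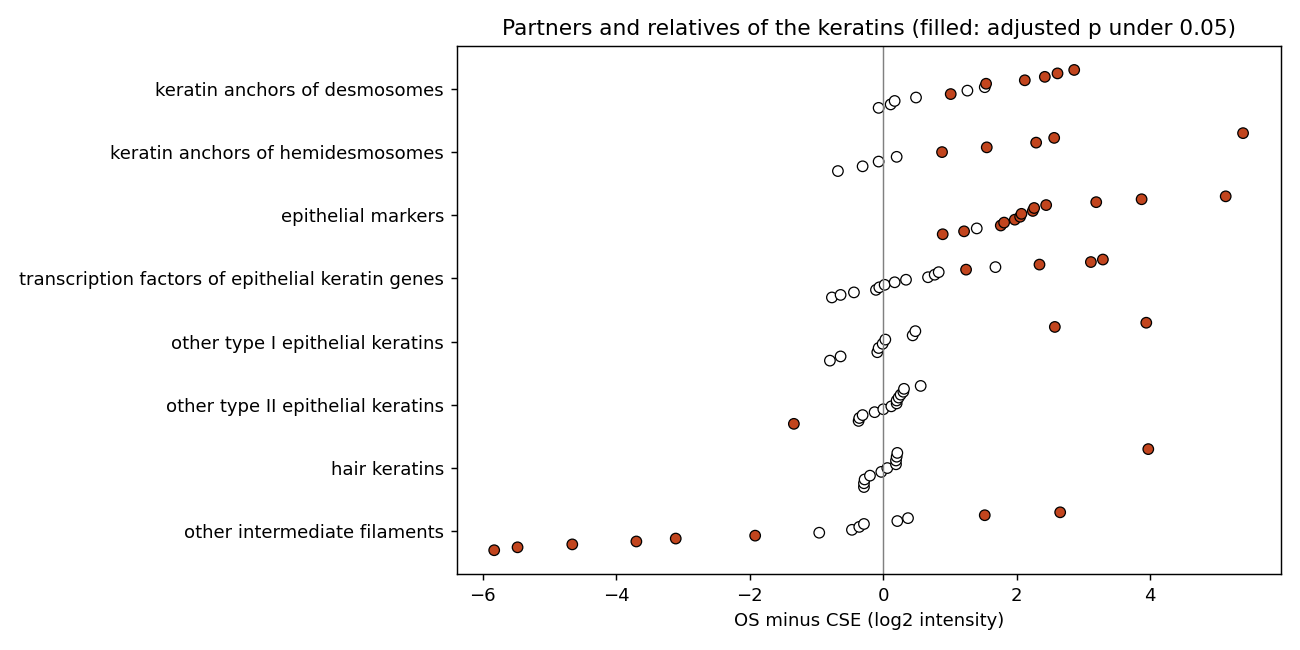
OS minus CSE log2 difference (horizontal axis) of each gene of 8 lists (rows), filled where limma's adjusted p was under 0.05. The called desmosome, hemidesmosome and epithelial marker genes all lie to the right of 0, and the other intermediate filaments reach -5.83.

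Genes with profiles most like those of the keratins were found among 18554 named genes by the root mean square difference of the centred log2 intensity over the 9 samples. Krt8 was nearest to Tnfrsf12a (0.394), Mab21l4 (0.524) and Gprc5a (0.542), and Krt18 to Ldhd (0.306), Cda (0.416) and Krt81 (0.449). Krt7 was nearest to Plin4 (0.434), with Lamb3 (0.506) also close, and Krt19 to Tmcc3 (0.282), Stbd1 (0.333) and Dusp10 (0.351). The gene nearest to Krt17 was Pmaip1, at 0.653, and that nearest to Krt15 was Dbndd1, at 0.278. Krt23 was nearest to Kif5b (0.326), Krt20 to Slamf9 (0.432), Krt5 to Gstm4 (0.104) and Krt14 to Ddt (0.126). Among the members, Krt5 was 0.44 from Krt14, and Krt8 was 0.58 from Krt18 and 0.59 from Krt7. Krt5 and Krt14 were dim and varied little beside the other keratins. Probes that vary little lie close to each other by this measure, so small distances for Krt5 and Krt14 need not mean a shared profile.

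Markers of other epithelia were also measured. Of 9 secretory mucosa markers 5 were higher in OS than in CSE, among them Wfdc18, Lcn2 and Slpi (limma adjusted p = 0.000557, 0.00181 and 0.000113). Muc1 (0.54), Muc4 (-0.05), Muc5b (-0.31) and Pigr (-0.22) did not pass. Wfdc18 was at 18.13 to 18.59 in OS, at or near the top of the normalized scale, and at 11.45, 6.01 and 7.49 in CSE, so no single difference is given for it. Slpi was higher by 7.48 ± 0.54. The list's mean was 10.42 to 11.65 in the OS samples, 7.10 to 7.94 in CSE and 6.51 to 6.68 in ESCs. Of 6 mesothelium markers, only Msln was higher, by 9.86 ± 0.46, and none was lower. Upk1b (1.43), Wt1 (1.12), Upk3b (0.38), Lrrn4 (-0.4) and Gpm6a (-0.98) did not pass. The paper lists Wfdc18, Lcn2, Slpi and Msln among the genes upregulated only in otospheres. Of 10 stratified epidermis markers 3 were higher (Sprr1a, Sfn and Ivl) and 2 lower (Krt1 and Lor). Whether cells of these kinds contribute to the keratin signals was not tested.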

How the data were processed

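RNA of otospheres, CSE and ESCs was hybridized to 11 single-colour arrays. The deposited scanner files hold the linear median intensity of each spot and its background (Feature Extraction 10.7.3.1), and the authors also deposited a table of quantile-normalized log2 values, used as an alternative. Intensities were corrected by normexp in limma 3.58.1 (R 4.3.3), with an offset of 16 since the methods name none, converted to log2 and quantile-normalized, and outlying spots were left out. The filter asked for a signal 10% or more over the 95th percentile of 308 negative control spots, on 2 or more arrays. A model of the 3 group means was fitted with Benjamini-Hochberg adjustment, threshold 0.05, and was tested on simulated data. The p-values measure the spread between samples, which may be technical.

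Arrays of a group were averaged when the SD of their log2 difference was under that expected from spot noise, as a ratio under 1 among probes above a mean log2 signal of 7, 9 or 11. OS4 and OS5 had ratios of 0.528, 0.45 and 0.443. OS1 and OS2 had 1.16, 1.03 and 0.968, so they passed only at the highest limit, and the other 17 pairs had 1.64 to 5.39. A fit with the limit of 9 alone, which keeps OS1 and OS2 apart, was made first. The other limits were added after its ratios and calls were seen, and it is given as an alternative.

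The keratins and gene lists were chosen with earlier results of these data known. All members are named. Listed genes are named by the largest called OS minus CSE differences, up to 6 a list, with Vim, Nes and the called junction genes. Some items that this rule names are not reported here. Trp63, the motifs, and the junction, secretory mucosa and mesothelium genes that did not pass were chosen apart from that rule. Alternatives were offsets, scalings, filters, blocks, the deposited table and leaving out each sample. Gene names and promoters came from RefSeq (GRCm38.p6).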

Additional observations from a re-analysis of the deposited data

Results flagged for a closer look

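Krt18 was flagged among the 4 otosphere samples because 1 sample lay far from the others. OS3, at 17.47 on the log2 scale, was apart from the other OS samples at 18.51 to 18.59, and this gap was 0.934 of the range of the group. The other samples lie at or near the top of the normalized scale. Chance flags about 1 in 20 groups of freely varying values, and 10 keratins were examined. That rate need not hold for Krt18, whose other samples were limited by the top of the scale.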

How the results depend on the processing

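Over 22 alternative fits, 5 or 6 of the 10 keratins passed between OS and CSE (6 in the fit reported), 4 to 6 between OS and ESCs (6) and 2 to 4 between CSE and ESCs (3). Krt8, Krt18, Krt7, Krt17 and Krt15 passed between OS and CSE in each of them, and Krt19 in 12. Their values moved with the processing: Krt17 between OS and CSE ran from 4.97 (replicate block) to 7.81 (processed signal), Krt15 between CSE and ESCs reached 3.50 with the processed signal, and Krt8 and Krt18 between OS and ESCs fell to 3.15 and 2.75 with it. With OS1 and OS2 as separate samples, an alternative chosen after seeing the data, 6, 6 and 3 keratins passed, Krt19 had an adjusted p of 0.0223, and 2916 probes were called higher and 3619 lower in OS than in CSE, against 2321 and 2973.

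With every array a separate sample and a replicate block, 5, 5 and 2 keratins passed, without Krt19 (1.75, adjusted p = 0.0768), Krt23 against ESCs (2.72) and Krt14 in CSE against ESCs (-1.12). The shared numbers did not pair OS with CSE (correlations of deviations 0.356, -0.34 and -0.392). Every array as a separate sample moved the probes called higher in OS than in CSE to 3682, and leaving out CSE1 moved the higher and lower calls to 1281 and 1664.

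The signs that turned belonged to differences that did not pass in the fit reported. Krt19 in CSE against ESCs became -0.39 with the processed signal and -0.34 with scaling to the 75th percentile, and ran from -0.53 (without ES2) to 1.18 (without ES1) with 1 sample left out. With 1 sample left out, OS minus ESCs ran from -2.76 to 0.54 for Krt20, which passed without ES2 (adjusted p = 0.0286), and from -0.63 to 0.18 for Krt15, and CSE minus ESCs from -0.83 to 0.46 for Krt18, the extremes being without ES2 and without ES1. OS minus CSE for Krt5 ran from -0.29 to 0.05, and was 0.06 with its second probe, which gave 0.03 against ESCs. Without ES2, Krt14 and Krt17 in CSE against ESCs had adjusted p of 0.131 and 0.0988. The causes were not tested. Leaving out an ESC sample assumes that the other varies like the other groups.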
